A study of Mus musculus with 9 samples.

Results

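The Wnt pathway genes described here are the Wnt ligands, their Frizzled and LRP receptors, the secreted antagonists, the R-spondin and LGR genes, and the intracellular and nuclear components that read or damp the signal. They were taken by symbol from a table of counts per gene, namely all Wnt, Fzd, Sfrp and Dkk genes and 20 further pathway genes listed by name. The rule gave 57 of 24503 rows. Of these, 39 passed the filter on low counts and were tested. The other 18 had at most 45 counts summed over all 9 libraries (Sfrp5), and Dkk1, Wnt1, Wnt10a, Wnt3a and Wnt9b were at 0 in all of them.

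RNA was sequenced from primary neural stem cells of the mouse cortex at embryonic stage E13.5. The cells were enriched as neurospheres and then grown on laminin (5 µg/mL) with FGF (10 ng/mL) and EGF (20 ng/mL). All 3 groups carried a homozygous floxed Phf2 allele and were otherwise wild type. They were transduced with virus carrying a non-targeting hairpin (shNT) or 1 of 2 short hairpins against Rad21 (shRad21_1 and shRad21_2), with 3 libraries per group. Rad21 encodes a subunit of cohesin, the ring complex that holds sister chromatids together and extrudes chromatin loops. The labels do not say whether the libraries of a group came from separate cultures or embryos, so the p-values reflect only how these libraries varied, which could be technical variation. No source used here gives the time from infection to harvest.

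Wnt proteins are secreted lipid-modified ligands that bind Frizzled receptors. With the co-receptors LRP5 or LRP6 they stop the Axin-based destruction complex from degrading β-catenin, which then acts with TCF/LEF factors on DNA. Other Wnts, of which Wnt5a is the best known, act mainly through Frizzled and Ror receptors without β-catenin. In the embryonic cortex, Wnt signals pattern the medial wall and influence whether progenitors divide or differentiate.

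Rad21 stood at 531, 450 and 456 CPM with shNT, CPM being counts per TMM-scaled library total on a common scale. It stood at 187, 174 and 178 with shRad21_1 and at 82.0, 91.2 and 82.5 with shRad21_2, so that the 3 groups did not overlap and shRad21_2 was the stronger hairpin. Each knockdown level came from 1 hairpin, so the Rad21 level and other effects of that hairpin cannot be told apart. All 12 neural stem cell markers were detected well enough to be tested, with summed levels between 7162 and 9094 CPM in the 9 libraries. On the first principal component (62.7% of the variance), shRad21_1 replicate 1 lay at 9.97. It stood between replicates 2 and 3 of its group, at -15.5 and -15.7, and the shRad21_2 libraries, at 40.6 to 44.9. Its distance to its own group was the smaller. Replicates 2 and 3 of shNT and of shRad21_1 were closer to each other than other libraries of a group, with a chi-square per gene of 3.19 and 2.18 against 23.0 to 69.9 for the other pairs. These close pairs still differed by more than sampling noise and were kept as separate libraries. Summing each pair into 1 library is given as an alternative. Genes were tested with edgeR's quasi-likelihood test in a single fit of 9 libraries. The 13560 genes tested were adjusted together by the Benjamini-Hochberg method, and those with an adjusted p under 0.05 count as called. Both hairpins were compared with the same 3 shNT libraries. Fold changes are on the log2 scale. SE is an approximate standard error, the absolute log2 fold change divided by the square root of the test's F statistic.

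With the weaker hairpin, 4 of the 39 tested Wnt pathway genes rose and 8 fell (30.8% called). The background for this comparison was 9.82% of all tested genes, with 4.19% higher and 5.63% lower. Fzd4, Fzd8, Lef1 and Tcf7l1 rose, and Wnt4, Wnt5b, Wnt7a, Fzd10, Dkk3, Sfrp4, Lgr5 and Rnf43 fell. The median log2 fold change of the 39 tested members was -0.11, beside 0.01 over all genes tested. With the stronger hairpin, 9 rose and 12 fell (53.8% called). Here the background was 43.6%, with 21.1% higher and 22.5% lower. The median was again -0.11, beside 0.01 over all genes. Axin1, Fzd4, Fzd8, Lef1, Lgr4, Sfrp2, Tcf7, Tcf7l1 and Wnt5a rose. Wnt4, Wnt5b, Wnt7a, Wnt7b, Fzd1, Fzd7, Fzd9, Fzd10, Lgr5, Nkd1, Rnf43 and Znrf3 fell. The stronger hairpin differed from the weaker in 5 higher and 9 lower genes (35.9%). Here the background was 26.3%, with 11.9% higher and 14.4% lower, and the median was 0.03 for the members and -0.0022 for all genes. Wnt4, Wnt5b, Wnt7a, Rnf43 and Tcf7l1 were called in all 3 comparisons, and 15 tested members were called in none. The shares of all genes called in all 3 or in none were not counted. Whether these numbers are unusual was therefore not tested.

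The number of calls for shRad21_1 depended on single libraries and on the close pairs. Without shNT replicate 2 or replicate 3, 7 members were called, 2 higher and 5 lower. Over all genes these fits called 467 of 13692 and 460 of 13693, where the fit above called 1331 of 13560. With the close pairs summed, 3 remained, namely Tcf7l1, Wnt7a and Fzd10, and 130 of 13636 genes were called. In the comparison of the hairpins, 9 members were called without shRad21_1 replicate 2 or replicate 3. Over all genes, those fits gave 749 higher and 1296 lower, and 764 higher and 1291 lower. In the same comparison, summing the close pairs left 8 members and ended the calls of Axin1, Fzd9, Sfrp1, Sfrp4, Tcf7l1 and Znrf3. Over all genes it gave 349 higher and 921 lower. A fit of only the 2 hairpin groups left 9 members and ended the calls of Axin1, Fzd9, Sfrp4, Tcf7l1 and Znrf3. Over all genes that fit gave 871 higher and 1362 lower. Without a composition factor in the scaling, the calls over all genes for shRad21_2 against shNT split into 2167 higher and 3541 lower, where the fit above gave 2861 and 3056. Between the hairpins the same change gave 1095 higher and 2310 lower in place of 1608 and 1955.

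**Figure D1:**
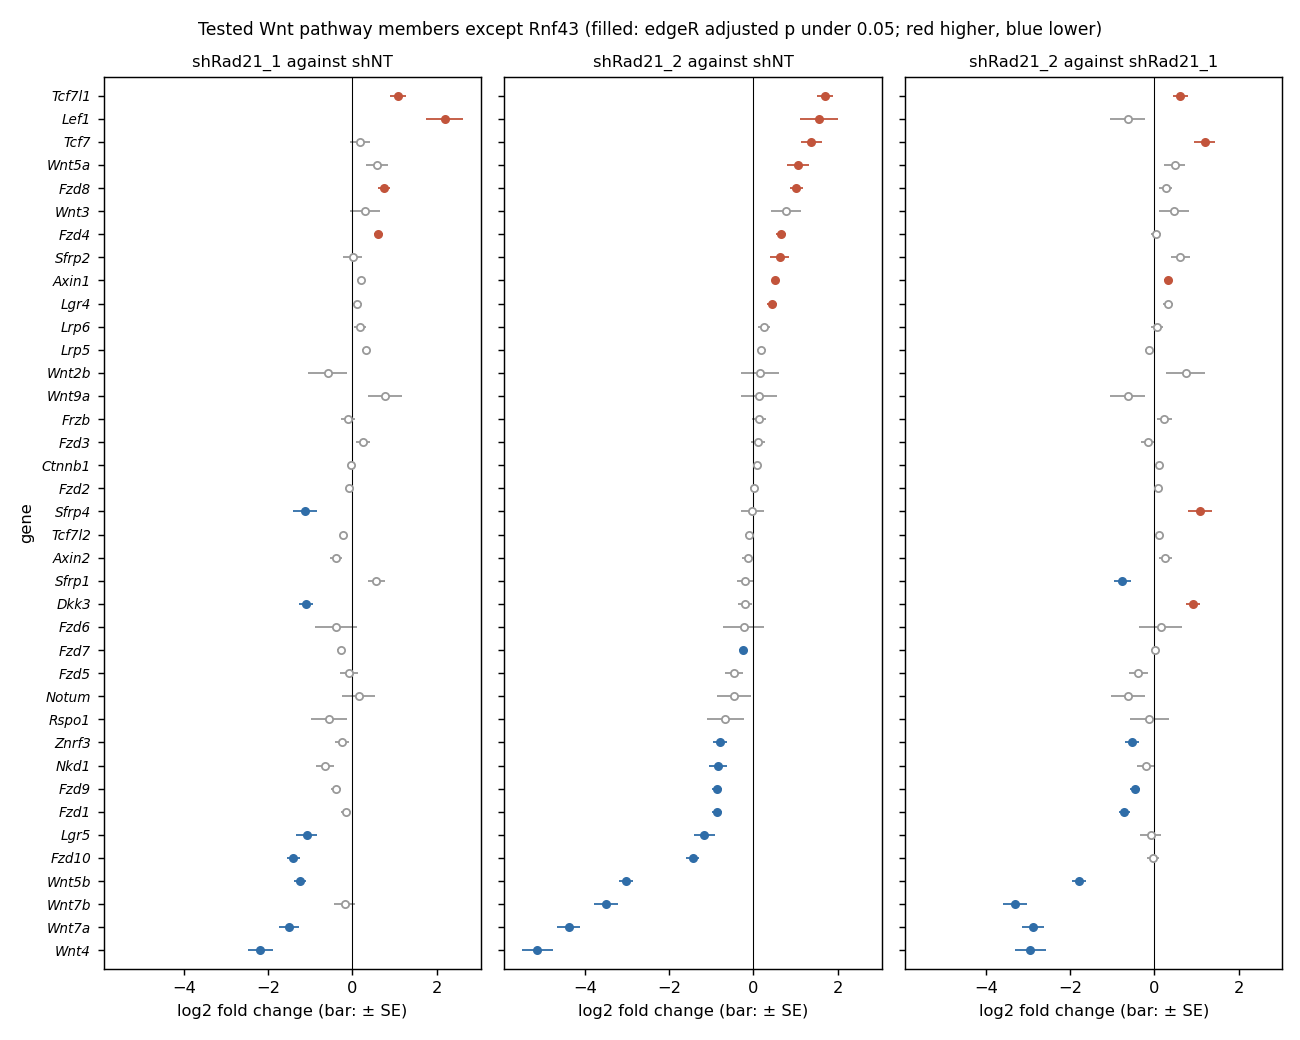
Log2 fold change of the tested Wnt pathway genes other than Rnf43 in the 3 comparisons, with bars of ± SE and filled points where the edgeR adjusted p was under 0.05 (red higher, blue lower). Wnt4, Wnt7a, Wnt7b and Wnt5b lie farthest to the left for shRad21_2 against shNT, at -5.13, -4.39, -3.50 and -3.02, and Tcf7l1 farthest to the right at 1.70.

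Of the 19 Wnt ligand genes in the table, 8 were tested. Wnt7a, Wnt7b, Wnt4 and Wnt5b fell with shRad21_2, Wnt5a rose, and Wnt2b, Wnt3 and Wnt9a were not called. With shRad21_1, Wnt7a, Wnt4 and Wnt5b fell. The start regions of 3 ligands that fell with both hairpins are shown because these 3 ligands were called in all 3 comparisons. Wnt7b and Wnt5a were not matched in the RefSeq table. They come from RefSeq (build GRCm38.p6), were limited to the 250 bases before the transcription start and trimmed to bases outside annotated exons, and are written 5′ to 3′ on the gene's strand. Capitals mark a TCF/LEF core. RefSeq promoter entries matched 37 of the 57 members.

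Wnt4, chr4:137277385-137277488, plus strand: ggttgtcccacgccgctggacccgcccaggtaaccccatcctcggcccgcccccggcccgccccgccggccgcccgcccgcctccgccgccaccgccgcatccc
Wnt7a, chr6:91411364-91411512, minus strand: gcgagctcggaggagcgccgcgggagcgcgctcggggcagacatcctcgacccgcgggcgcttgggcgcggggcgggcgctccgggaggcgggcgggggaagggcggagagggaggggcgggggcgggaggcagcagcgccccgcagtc
Wnt5b, chr6:119449387-119449636, minus strand: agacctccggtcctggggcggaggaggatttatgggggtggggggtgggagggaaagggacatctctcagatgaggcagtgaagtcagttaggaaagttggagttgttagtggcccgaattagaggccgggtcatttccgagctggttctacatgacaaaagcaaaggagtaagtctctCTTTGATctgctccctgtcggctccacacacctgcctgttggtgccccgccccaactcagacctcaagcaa

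The motifs searched on both strands were CTTTGAA and CTTTGAT, the cores bound by TCF/LEF factors, and a core of the CTCF motif. CTCF is a DNA-binding protein at which cohesin often halts. The Wnt5b window held CTTTGAT once, from -71 to -65 relative to the start. It is 1 of 3 RefSeq starts of this gene, and which of them these cells use was not measured here. The other Wnt5b windows and those of Wnt4 and Wnt7a held neither TCF/LEF core, and the CTCF core was in none of these windows. Among 32851 promoter windows of 250 bases, 3.21% held CTTTGAT, 7.48% held either TCF/LEF core and 7.17% held the CTCF core. The trimmed windows of Wnt4 and Wnt7a are shorter, at 104 and 149 bases. The printed windows of Wnt4 and Wnt7a were rich in G and C, at 83.7% and 82.6% of their bases, and that of Wnt5b was at 55.6%. The Wnt5b window printed is the one that held a TCF/LEF core, and the other Wnt5b windows were at 53.2% and 75.2%.

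Wnt7a, a ligand made by cortical progenitors, was the most abundant Wnt mRNA per kb of exon in shNT. The gene (ENSMUSG00000030093.7) lies on the minus strand of chromosome 6, from 91363981 to 91411363 (GRCm38, the mm10 build). It stood at 79.3, 64.6 and 66.2 CPM with shNT, at 14.0, 30.5 and 29.1 with shRad21_1 and at 3.45, 3.28 and 3.28 with shRad21_2. Each group lay wholly below the one before it, and shRad21_1 replicate 1 was the lowest of its group. Wnt7a fell by 1.51 on the log2 scale with shRad21_1 (SE 0.24, edgeR adjusted p = 0.00517) and by 4.39 with shRad21_2 (SE 0.28, adjusted p = 4.49e-06). Between the hairpins the difference was -2.87 (SE 0.27, edgeR adjusted p = 1.14e-04). These 3 calls held in all 18 alternatives.

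Wnt7b is the closest relative of Wnt7a and signals through the same receptor complex in brain. The gene (ENSMUSG00000022382.15) lies on the minus strand of chromosome 15, from 85535437 to 85582473. Its level was 60.6, 54.2 and 52.7 CPM with shNT. With shRad21_1 it was 26.8, 59.4 and 60.7 CPM, and with shRad21_2 it was 5.65, 5.04 and 4.05. The shRad21_1 libraries fell on both sides of shNT, with replicate 1 alone below, whereas the shRad21_2 libraries were below all others. The change with shRad21_1 was -0.19 (SE 0.26, edgeR adjusted p = 0.694), and was 0.11 when shRad21_1 replicate 1 was left out. Wnt7b fell by 3.50 with shRad21_2 (SE 0.29, edgeR adjusted p = 2.12e-05), and the hairpins differed by -3.31 (SE 0.29, adjusted p = 8.58e-05).

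Wnt4, a ligand known from kidney, gonad and spinal cord, fell farthest on the log2 scale among the ligands. The gene (ENSMUSG00000036856.4) lies on the plus strand of chromosome 4, from 137277489 to 137299726. Its level was 12.5, 13.4 and 14.4 CPM with shNT, 2.45, 3.52 and 2.90 with shRad21_1, and 0.686, 0.176 and 0.228 with shRad21_2. The 3 groups did not overlap, and the shRad21_2 libraries held 45 counts in all, against 1672 in shNT. Wnt4 fell by 2.18 with shRad21_1 (SE 0.31, edgeR adjusted p = 0.00306) and by 5.13 with shRad21_2 (SE 0.38, adjusted p = 9.85e-06). The hairpins differed by -2.94 (SE 0.37, edgeR adjusted p = 6.66e-04). The call for shRad21_1 was lost with the close libraries summed, at a change of -2.21.

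Wnt5b (ENSMUSG00000030170.14, chromosome 6, minus strand, 119432531 to 119544347) is a paralog of Wnt5a. It stood at 7.73, 7.88 and 9.20 CPM with shNT, at 3.94, 3.07 and 3.46 with shRad21_1 and at 1.02, 0.997 and 1.03 with shRad21_2. The groups stepped down without overlap, and the 3 shRad21_2 libraries were nearly alike. Wnt5b fell by 1.25 (SE 0.15, edgeR adjusted p = 0.00160) and by 3.02 (SE 0.17, adjusted p = 3.04e-06) with the weaker and stronger hairpin, and the hairpins differed by -1.78 (SE 0.17, adjusted p = 1.28e-04). With the close libraries summed the call for shRad21_1 was lost at -1.18.

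Wnt5a, the ligand best known for β-catenin-independent signalling, moved the other way. The gene (ENSMUSG00000021994.15) lies on the plus strand of chromosome 14, from 28504750 to 28527448. It stood at 77.7, 51.4 and 51.8 CPM with shNT, at 133, 70.9 and 66.6 with shRad21_1 and at 126, 141 and 111 with shRad21_2. Replicate 1 was the highest library of shNT and of shRad21_1, where it was at the level of the shRad21_2 libraries. The shRad21_2 libraries were all above shNT. Wnt5a rose by 1.06 with shRad21_2 (SE 0.26, edgeR adjusted p = 0.00827). It was at 0.58 with shRad21_1 (SE 0.26, adjusted p = 0.184) and 0.19 without shRad21_1 replicate 1. The hairpins differed by 0.48 (SE 0.26, edgeR adjusted p = 0.188). Leaving that library out gave 0.87, which was called.

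Wnt3, a ligand that signals through β-catenin, was low, at 1.23 to 1.43 CPM with shNT, 0.707 to 2.27 with shRad21_1 and 2.14 to 2.35 with shRad21_2. With shRad21_2 it was at 0.77 on the log2 scale (SE 0.35, edgeR adjusted p = 0.0984). Wnt2b and Wnt9a stayed between 0.302 and 1.36 CPM in the 9 libraries.

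**Figure D2:**
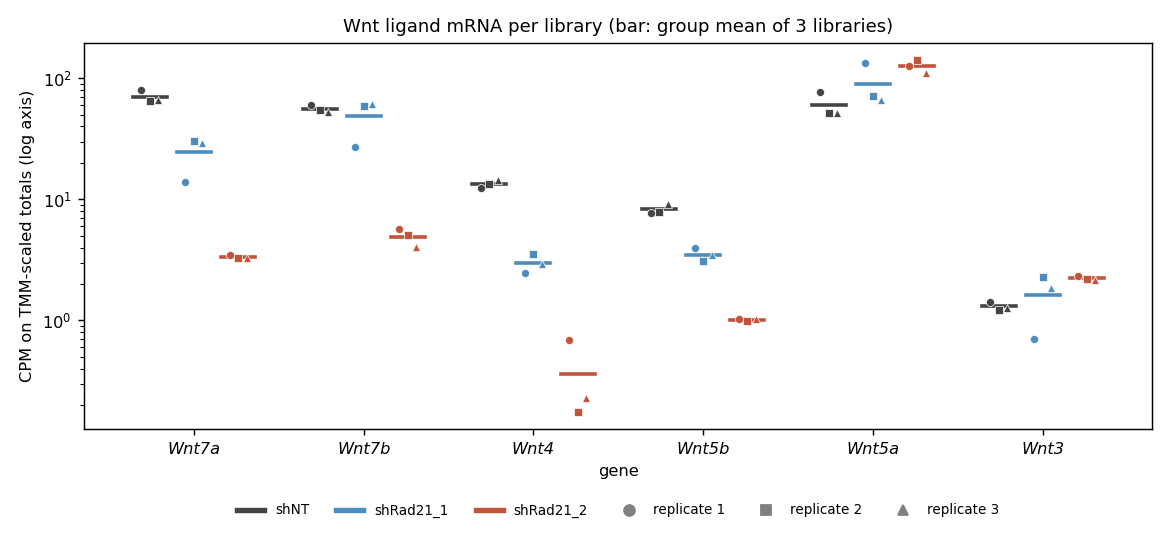
CPM on a log axis of 6 Wnt ligand mRNAs in each of the 9 libraries, with symbols for the replicate and bars for the group mean. Wnt7a, Wnt4 and Wnt5b step down from shNT to shRad21_1 to shRad21_2, Wnt7b drops only with shRad21_2 and in shRad21_1 replicate 1, and Wnt5a lies between 111 and 141 with shRad21_2.

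Levels of different ligands were compared as CPM per kb of merged exons. The 8 tested ligands summed to 48.3 ± 4.91 CPM per kb with shNT (SD, n = 3), 32.2 ± 2.21 with shRad21_1 and 19.7 ± 2.11 with shRad21_2. The 3 groups of sums did not overlap, although an exact two-sided permutation test of 3 libraries against 3 cannot go below 0.1. Wnt7a made up 45.7% ± 0.571 of the sum with shNT and 5.38% ± 0.574 with shRad21_2 (n = 3 each). In the shRad21_1 libraries its share was 14.9, 28.4 and 27.8%. Wnt5a made up 15.8% ± 2.26 with shNT and 81.6% ± 1.40 with shRad21_2. Its share was 57.2, 26.8 and 25.8% in the shRad21_1 libraries, so that replicate 1 lay between its own group and shRad21_2. Wnt7b made up 23.7% ± 0.873 with shNT and 5.09% ± 0.588 with shRad21_2. The most abundant Wnt mRNA per kb was therefore Wnt7a in shNT, Wnt7b in shRad21_1 replicates 2 and 3, and Wnt5a in shRad21_1 replicate 1 and all shRad21_2 libraries.

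**Figure D3:**
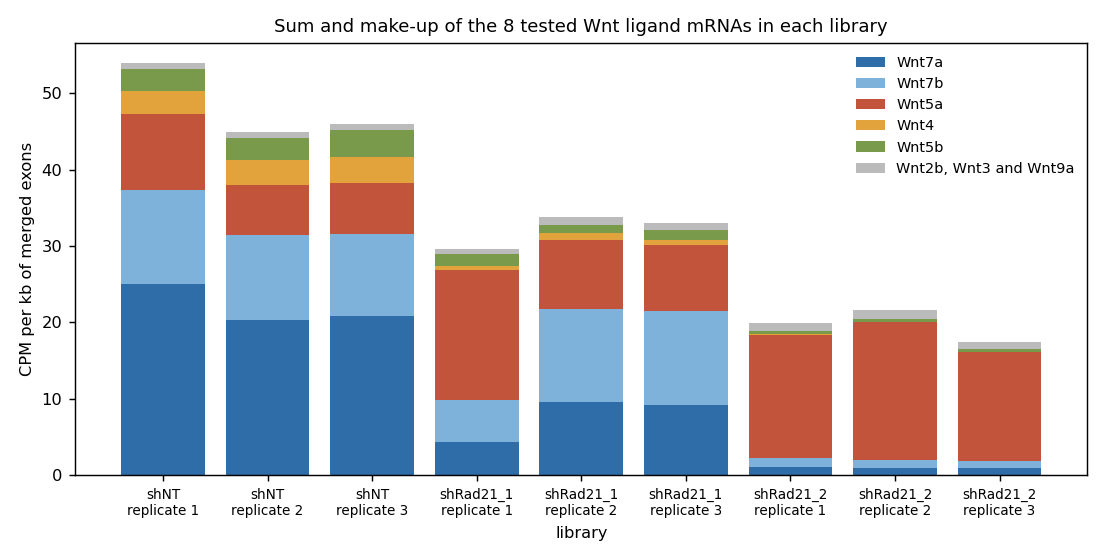
Stacked bars of CPM per kb of merged exons for the 8 tested Wnt ligands in each library. The total drops from 44.9 to 53.9 with shNT to 17.5 to 21.7 with shRad21_2, while the Wnt5a section takes 80.3 to 83.1% of each shRad21_2 bar.

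The summed markers of astrocytes, like Wnt7a and Wnt7b, were lowest with shRad21_2. The 8 listed astrocyte markers summed to 582, 632 and 601 CPM with shNT, 154, 469 and 480 with shRad21_1, and 81.5, 95.5 and 75.8 with shRad21_2. Of the 7 tested, 6 fell with shRad21_2, beside 22.5% of all genes lower in that comparison. With shRad21_1, where Wnt7a fell, 0 of the 7 were called, beside 9.82% of all genes. Among the 6 tested markers of the oligodendrocyte lineage, 5 fell with shRad21_2, and the list summed to between 1442 and 2016 CPM in the 9 libraries. Of 6 tested neuronal markers, 1 rose and 3 fell with shRad21_2, and of the 12 neural stem cell markers, 4 rose and 4 fell. Over all genes, 21.1% were higher and 22.5% lower in that comparison. The summed levels of the microglial list (0.285 to 3.16 CPM) and of the choroid plexus and cortical hem list (0.0856 to 0.803) were near 0 in every library. The microglial genes Aif1, Cx3cr1 and C1qa and the hem gene Lmx1a were at 0 in all of them. In bulk RNA, fewer cells of a type and less RNA per cell cannot be told apart, and the part of these markers in the ligand results was not tested.

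The neighbours of these ligands, counted in the same fit, were tested genes whose start lay within 500 kb of the ligand's start. Genes that start farther off but reach into this span were not counted, nor were genes without a unique annotated position. Around Wnt7a, 11 other genes were tested, of which Chchd4, Hdac11, Nup210 and Slc6a6 were called with shRad21_2, 3 higher and 1 lower. Around Wnt7b, 5 of 12 were called (1 higher, 4 lower), around Wnt4 2 of 6 (both lower, Cdc42 and Ephb2), and around Wnt5b 3 of 8 (2 higher, 1 lower). No tested gene with such a position started within 500 kb of the Wnt5a start. These shares stand beside 43.6% of all genes called in that comparison.

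The Frizzled genes, which encode the Wnt receptors, did not move in 1 direction. Of 12 receptor and co-receptor genes tested, Fzd4 and Fzd8 rose with both hairpins and Fzd10 fell with both. Fzd1, Fzd7 and Fzd9 fell with shRad21_2 and were not called with shRad21_1. Fzd2, Fzd3, Fzd5, Fzd6, Lrp5 and Lrp6 were called in no comparison.

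Fzd10 (ENSMUSG00000081683.5, chromosome 5, plus strand, 128600844 to 128604093) is a receptor of the dorsal neural tube and forebrain. Its level was 65.6, 58.4 and 57.8 CPM with shNT. It was 17.2, 25.7 and 25.7 CPM with shRad21_1 and 24.4, 21.5 and 21.1 with shRad21_2. All 6 knockdown libraries were below the shNT libraries, and the hairpin groups overlapped. Fzd10 fell by 1.40 (SE 0.15, edgeR adjusted p = 7.92e-04) and by 1.44 (SE 0.15, adjusted p = 7.07e-05). The hairpins differed by -0.04 (SE 0.15, adjusted p = 0.880), although Rad21 itself was lower with shRad21_2. Both calls against shNT held in all 18 alternatives.

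Fzd9 (ENSMUSG00000049551.2, chromosome 5, minus strand, 135248938 to 135251230) was the most abundant Frizzled mRNA per kb in every group. It stood at 261, 238 and 241 CPM with shNT, at 148, 207 and 207 with shRad21_1, and at 129, 135 and 144 with shRad21_2. The groups did not overlap, and shRad21_1 replicate 1 was close to the highest shRad21_2 library. Fzd9 fell by 0.86 with shRad21_2 (SE 0.12, edgeR adjusted p = 4.52e-04) and was at -0.40 with shRad21_1 (SE 0.12, adjusted p = 0.0671). The DESeq2 Wald test called Fzd9 for shRad21_1, at -0.40. Between the hairpins it was lower with shRad21_2, at -0.46 (SE 0.12, edgeR adjusted p = 0.0210). That last call was lost without shRad21_1 replicate 2 or 3 (-0.38 each), or without shRad21_2 replicate 1 (-0.42) or 2 (-0.45), with the close libraries summed (-0.38) and with only the 2 groups compared (-0.47). Fzd1 stood at 82.8, 110.4 and 106 CPM with shNT, at 80.7, 93.0 and 94.4 with shRad21_1, and at 58.2, 57.3 and 48.6 with shRad21_2. Only the shRad21_2 libraries lay apart. Fzd1 fell by 0.86 with that hairpin (SE 0.12, edgeR adjusted p = 4.19e-04), and the hairpins differed by -0.71 (SE 0.12, adjusted p = 0.00306).

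Fzd4, a receptor of blood vessel and retinal development that also binds the non-Wnt ligand norrin, stood at 9.60, 10.5 and 10.8 CPM with shNT. It was at 14.5, 16.1 and 16.7 CPM with shRad21_1 and at 15.7, 18.2 and 14.8 with shRad21_2, above shNT in all 6 libraries. Fzd4 rose by 0.62 (SE 0.11, edgeR adjusted p = 0.00991) and by 0.66 (SE 0.11, adjusted p = 0.00140). The call for shRad21_1 was lost with the close libraries summed, at 0.61. The list of 6 endothelial markers summed to 7.73 to 8.85 CPM with shNT, 14.9, 6.83 and 6.86 with shRad21_1 and 7.56 to 9.74 with shRad21_2, so that shRad21_1 replicate 1 was the highest. Pecam1, Cdh5 and Cldn5 were under 1 CPM in every library. Of the 3 tested markers Kdr fell with shRad21_2, beside 22.5% of all genes lower. The part of these markers in the Fzd4 result was not tested. Fzd8 was at 5.99, 5.36 and 4.97 CPM with shNT, at 10.5, 7.68 and 9.26 with shRad21_1 and at 12.4, 10.2 and 10.4 with shRad21_2. All knockdown libraries lay above shNT. Fzd8 rose by 0.75 with shRad21_1 (SE 0.15, edgeR adjusted p = 0.0147) and by 1.01 with shRad21_2 (SE 0.15, adjusted p = 6.32e-04). Its call for shRad21_1 was lost without shNT replicate 2 (0.74) or 3 (0.68), and with the close libraries summed (0.76).

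Fzd7 lay just inside the threshold with shRad21_2. Its level was 33.4, 28.2 and 28.4 CPM with shNT, 25.0, 23.7 and 25.2 with shRad21_1, and 24.6, 26.6 and 24.0 with shRad21_2. All 6 knockdown libraries were below shNT. Fzd7 fell by 0.26 with shRad21_2 (SE 0.09, edgeR adjusted p = 0.0486) and was at -0.28 (SE 0.09, adjusted p = 0.0864) with shRad21_1. The call was lost without any 1 of 7 libraries, all but shRad21_1 replicate 1 and shRad21_2 replicate 2, with changes between -0.30 and -0.17. It was also lost in the fit with a replicate block (-0.25), with DESeq2 size factors (-0.25), with the close libraries summed (-0.30) and with only the 2 groups compared (-0.26).

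The other receptor genes were not called in any comparison. Fzd2 stood at 48.2 to 51.2 CPM with shNT, 45.2 to 49.5 with shRad21_1 and 48.5 to 51.8 with shRad21_2. Fzd3, a receptor of axon guidance and planar polarity, was at 136 to 164 CPM with shNT and 176 to 178 with shRad21_1. With shRad21_2 it was at 139, 213 and 126 CPM, and without replicate 2, the highest, the hairpins differed by -0.42 and were called different. Fzd5 was at 16.8, 26.7 and 26.1 CPM with shNT and 19.0, 16.8 and 14.8 with shRad21_2. Its change of -0.46 (SE 0.22, edgeR adjusted p = 0.118) was called at -0.65 without shNT replicate 1 and at -0.46 without shRad21_1 replicate 1. The co-receptor gene Lrp5 stood at 51.6 to 60.0 CPM with shNT, 63.1 to 75.7 with shRad21_1 and 58.0 to 68.2 with shRad21_2. With shRad21_1 its change was 0.33 (SE 0.10, edgeR adjusted p = 0.0617), and 0.39 and called without shRad21_1 replicate 1. The DESeq2 Wald test called Lrp5 there as well, at 0.33. Lrp6 was at 90.9 to 103 CPM with shNT, 104 to 117 with shRad21_1 and 96.6 to 146 with shRad21_2. Fzd6 stayed between 0.213 and 1.17 CPM.

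**Figure D4:**
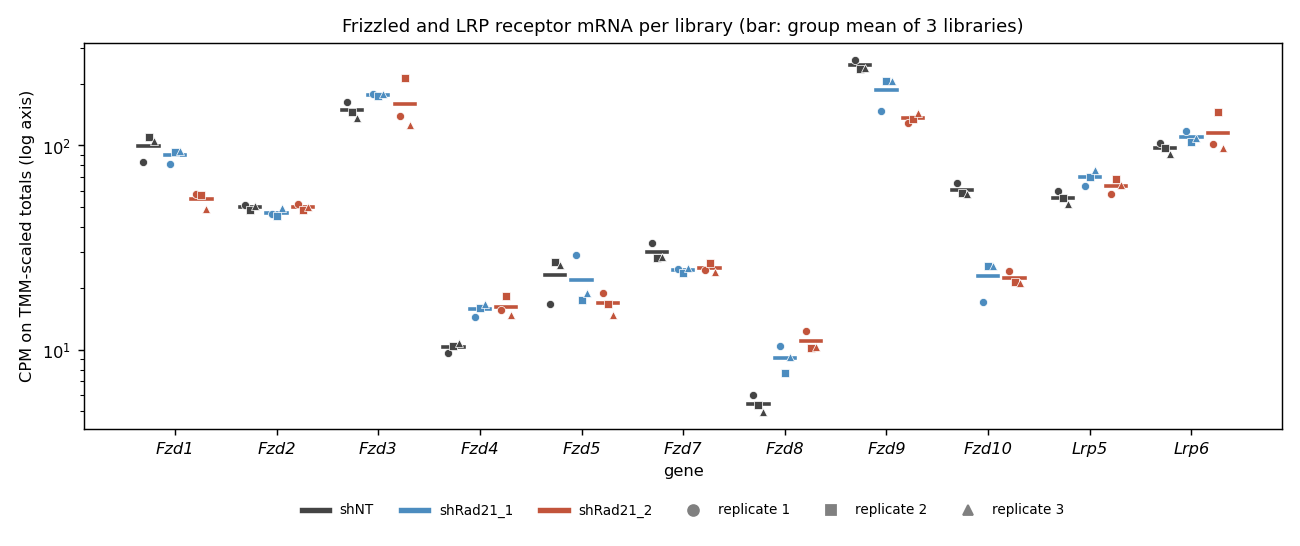
CPM on a log axis of the Frizzled genes other than Fzd6 and of Lrp5 and Lrp6 in the 9 libraries, with bars for group means. Fzd10 is lower and Fzd4 and Fzd8 are higher in all 6 knockdown libraries, while Fzd1 and Fzd9 are lowest with shRad21_2.

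Summed per kb of merged exons, the 10 Frizzled mRNAs stood at 188 ± 4.57 with shNT, 149 ± 17.2 with shRad21_1 and 118 ± 3.61 with shRad21_2 (CPM per kb, SD, n = 3 each). The 3 groups of sums did not overlap. Fzd9 made up 57.3% ± 1.59 of the sum with shNT and 50.5% ± 3.30 with shRad21_2, and Fzd10 9.93% ± 0.467 and 5.84% ± 0.573.

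Secreted antagonists bind Wnts, as the SFRP proteins and Frzb do, or the LRP co-receptors, as most DKK proteins do. Of 11 such genes in the table, 6 were tested. Dkk3, a divergent DKK family member, stood at 4.70, 4.41 and 4.88 CPM with shNT, at 1.98, 2.45 and 2.05 with shRad21_1 and at 4.47, 4.22 and 3.51 with shRad21_2. Only the shRad21_1 libraries were apart from the rest. Dkk3 fell by 1.11 with shRad21_1 (SE 0.17, edgeR adjusted p = 0.00449), a call lost with the close libraries summed (-1.14). With shRad21_2 its change was -0.20 (SE 0.16, adjusted p = 0.352), and the hairpins differed by 0.91 (SE 0.17, adjusted p = 0.00426). The hairpin with more Rad21 mRNA thus had the lower Dkk3.

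Sfrp4 stood at 2.67, 3.30 and 3.46 CPM with shNT, at 0.897, 1.44 and 1.99 with shRad21_1 and at 3.76, 2.58 and 2.88 with shRad21_2. As for Dkk3, the shRad21_1 libraries were the lowest. It fell by 1.12 with shRad21_1 (SE 0.29, edgeR adjusted p = 0.0355), and the hairpins differed by 1.09 (SE 0.29, adjusted p = 0.0200). The first call was lost without shNT replicate 1 (-1.23), 2 (-1.08) or 3 (-1.05), shRad21_1 replicate 2 (-1.12) or shRad21_2 replicate 3 (-1.12). The second was lost without shRad21_1 replicate 2 (1.09) or shRad21_2 replicate 1 (0.92). Summing the close libraries ended both (-1.19 and 1.21), as did fits of only the 2 groups compared (-1.12 and 1.09). Sfrp1, which marks cortical progenitors, stood at 4.23, 3.02 and 3.19 CPM with shNT, at 5.65, 4.35 and 5.48 with shRad21_1 and at 2.81, 3.64 and 2.71 with shRad21_2. The shRad21_1 libraries were the highest. Sfrp1 was called between the hairpins alone, at -0.76 (SE 0.20, edgeR adjusted p = 0.0205), and that call was lost without shRad21_1 replicate 3 (-0.71), shRad21_2 replicate 1 (-0.70) or replicate 3 (-0.68), and with the close libraries summed (-0.79).

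Sfrp2 was at 11.6, 11.4 and 11.2 CPM with shNT, at 6.93, 13.47 and 13.9 with shRad21_1 and at 15.3, 16.5 and 20.8 with shRad21_2. The shRad21_2 libraries were the highest, and shRad21_1 replicate 1 was the lowest of all. Sfrp2 rose by 0.62 with shRad21_2 just inside the threshold (SE 0.23, edgeR adjusted p = 0.0497). The call was lost without any 1 of 7 libraries, all but shRad21_1 replicates 1 and 3, with changes between 0.48 and 0.72. Library totals (0.55), the looser (0.61) and stricter (0.60) filters and summing the close libraries (0.62) ended it as well. Frzb was not called and stayed between 2.39 and 3.63 CPM. Notum, a secreted enzyme that removes the lipid from Wnts, was not called either and stayed between 0.571 and 1.76 CPM.

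LGR4 and LGR5 are receptors for R-spondins, and together they keep the ubiquitin ligases ZNRF3 and RNF43 from removing Frizzled from the cell surface. Lgr5 (ENSMUSG00000020140.15, chromosome 10, minus strand, 115450311 to 115587780) was at 21.1, 22.9 and 23.7 CPM with shNT, at 6.01, 12.9 and 12.9 with shRad21_1 and at 8.57, 11.3 and 10.2 with shRad21_2. All 6 knockdown libraries were below shNT. Lgr5 fell by 1.09 (SE 0.25, edgeR adjusted p = 0.0230) and by 1.17 (SE 0.25, adjusted p = 0.00408). The call for shRad21_1 was lost without shNT replicate 2 (-1.08) or 3 (-1.05), with the close libraries summed (-1.22) and with only the 2 groups compared (-1.09). Lgr4 was at 18.7, 18.6 and 19.1 CPM with shNT, at 20.7, 18.8 and 21.3 with shRad21_1 and at 22.6, 30.2 and 23.8 with shRad21_2. Only the shRad21_2 libraries were above all others. Lgr4 rose by 0.44 with shRad21_2 (SE 0.12, edgeR adjusted p = 0.0126), a call lost with the close libraries summed (0.44). Between the hairpins the difference was 0.33 (SE 0.12, adjusted p = 0.0596), which was called at 0.42 without shRad21_2 replicate 1. The DESeq2 Wald test called that difference too, at 0.34. Rspo1, the tested R-spondin, stayed between 0.147 and 0.467 CPM.

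Rnf43 (ENSMUSG00000034177.15, chromosome 11, plus strand, 87662722 to 87735539) was nearly undetected with the stronger hairpin. It stood at 2.20, 2.08 and 1.60 CPM with shNT, at 0.435, 0.560 and 0.878 with shRad21_1 and at 0.0443, 0 and 0 with shRad21_2. The 3 groups held 240, 70 and 2 counts. The ratio of CPM between shNT and shRad21_2 was 111, with an exact Clopper-Pearson interval of 30.3 to 920 at a confidence level of 0.95 that covers counting error only. Rnf43 was lower with shRad21_2 in the test as well (edgeR adjusted p = 4.25e-05). With shRad21_1 it fell by 1.64 (SE 0.38, edgeR adjusted p = 0.0256), a call lost without any 1 shNT library (-1.77 to -1.55), without shRad21_1 replicate 2 (-1.57) and with the close libraries summed (-1.77). The ratio between the hairpins was 35.8 (9.54 to 301, edgeR adjusted p = 0.00102). Its relative Znrf3 was at 48.4, 52.6 and 50.6 CPM with shNT, at 31.5, 48.4 and 47.7 with shRad21_1 and at 26.3, 35.4 and 26.3 with shRad21_2. The shRad21_2 libraries were below shNT, and shRad21_1 replicate 1 lay among them. Znrf3 fell by 0.79 with shRad21_2 (SE 0.17, edgeR adjusted p = 0.00458). Between the hairpins it was at -0.54 (SE 0.17, adjusted p = 0.0430), a call lost without any 1 shNT library (-0.54 each), shRad21_1 replicate 2 (-0.43) or 3 (-0.45), or shRad21_2 replicate 1 or 3 (-0.46 each). It was lost too with the close libraries summed (-0.44) and with only the 2 groups compared (-0.54).

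Inside the cell, Axin1 encodes the scaffold of the destruction complex, Axin2 and Nkd1 are feedback inhibitors that β-catenin induces, and Ctnnb1 encodes β-catenin. Axin1 stood at 66.8, 64.9 and 69.3 CPM with shNT, at 83.1, 72.8 and 75.3 with shRad21_1 and at 101, 87.9 and 100.1 with shRad21_2. The 3 groups did not overlap. Axin1 rose by 0.52 with shRad21_2 (SE 0.08, edgeR adjusted p = 7.98e-04) and was at 0.20 with shRad21_1 (SE 0.08, adjusted p = 0.149). The difference between the hairpins was 0.32 (SE 0.08, adjusted p = 0.0178), a call lost without shRad21_1 replicate 2 (0.28) or 3 (0.31), or shRad21_2 replicate 3 (0.30), with the close libraries summed (0.29) and with only the 2 groups compared (0.32). Axin2, the most widely used readout gene of β-catenin signalling, stood at 52.1, 44.4 and 41.5 CPM with shNT, at 34.8, 34.6 and 35.5 with shRad21_1 and at 52.4, 38.8 and 34.6 with shRad21_2. The shRad21_2 libraries overlapped both other groups. Axin2 was at -0.39 with shRad21_1 (SE 0.15, edgeR adjusted p = 0.120) and at -0.13 with shRad21_2 (SE 0.15, adjusted p = 0.497). Without shRad21_2 replicate 1 it was called in both comparisons, at -0.40 and -0.32. For shRad21_1 it was also called with only the 2 groups compared, at -0.39.

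Nkd1 was at 62.0, 66.4 and 71.6 CPM with shNT, at 31.4, 47.1 and 48.4 with shRad21_1 and at 50.7, 29.1 and 31.4 with shRad21_2. All 6 knockdown libraries were below shNT. Nkd1 fell by 0.84 with shRad21_2 (SE 0.22, edgeR adjusted p = 0.0110). With shRad21_1 it was at -0.66 (SE 0.22, adjusted p = 0.0861). That change was called at the same size without shRad21_2 replicate 1 and by the DESeq2 Wald test. Ctnnb1, the most abundant member per kb, stood at 1016, 916 and 923 CPM with shNT, at 1034, 888 and 888 with shRad21_1 and at 984, 1036 and 1012 with shRad21_2. The groups overlapped. Its log2 fold changes were -0.02 (SE 0.08, edgeR adjusted p = 0.895) and 0.09 (SE 0.08, adjusted p = 0.415).

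The 4 TCF/LEF genes encode the DNA-binding partners of β-catenin. Tcf7l1 acts mainly as a repressor in stem cells, Lef1 and Tcf7 mainly as activators. Tcf7l1, Lef1 and Tcf7 rose with shRad21_2, Tcf7l1 and Lef1 rose with shRad21_1, and Tcf7l2 was not called. Tcf7l1 (ENSMUSG00000055799.13, chromosome 6, minus strand, 72626378 to 72789254) stood at 11.6, 15.5 and 13.3 CPM with shNT, at 38.0, 23.8 and 23.7 with shRad21_1 and at 48.4, 40.8 and 42.2 with shRad21_2. The groups stepped up without overlap, with shRad21_1 replicate 1 nearest the stronger hairpin. Tcf7l1 rose by 1.08 (SE 0.19, edgeR adjusted p = 0.00777) and by 1.70 (SE 0.19, adjusted p = 1.09e-04), and both calls held in all 18 alternatives. The hairpins differed by 0.62 (SE 0.18, adjusted p = 0.0337). That call was lost without shNT replicate 3 (0.62), shRad21_1 replicate 2 (0.51) or 3 (0.50), or shRad21_2 replicate 1 (0.54) or 3 (0.65), with the close libraries summed (0.51) and with only the 2 groups compared (0.61).

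Lef1 (ENSMUSG00000027985.14, chromosome 3, plus strand, 131110471 to 131224356) was the lowest of the 4 per kb in shNT. It stood at 2.01, 2.03 and 2.31 CPM with shNT, at 18.3, 4.94 and 5.74 with shRad21_1 and at 7.26, 5.43 and 5.97 with shRad21_2. All 6 knockdown libraries were above shNT, and shRad21_1 replicate 1 was the highest by far. Lef1 rose by 2.19 with shRad21_1 (SE 0.45, edgeR adjusted p = 0.0148). Leaving that library out gave 1.33. It rose by 1.56 with shRad21_2 (SE 0.44, adjusted p = 0.0174). The call for shRad21_1 was lost without shNT replicate 1 (2.15), 2 (2.16) or 3 (2.25) and with the close libraries summed (2.49). That for shRad21_2 was lost without shNT replicate 1 (1.52) or 2 (1.53), or shRad21_2 replicate 1 (1.43).

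Tcf7 stood at 8.55, 7.46 and 5.70 CPM with shNT, at 11.6, 6.27 and 6.62 with shRad21_1 and at 21.9, 16.8 and 17.5 with shRad21_2. Only the shRad21_2 libraries were above all others. Tcf7 rose by 1.37 with that hairpin (SE 0.25, edgeR adjusted p = 0.00163), and the hairpins differed by 1.20 (SE 0.24, adjusted p = 0.00687). Tcf7l2 was at 27.3 to 29.7 CPM with shNT, 23.2 to 26.2 with shRad21_1 and 24.7 to 28.0 with shRad21_2. Summed per kb of merged exons, the 4 factors stood at 9.67 ± 0.673 with shNT, 14.3 ± 3.94 with shRad21_1 and 22.0 ± 2.16 with shRad21_2 (CPM per kb, SD, n = 3 each). Tcf7l1 made up 35.4% ± 3.85 of the sum with shNT and 50.7% ± 0.588 with shRad21_2, while Tcf7l2 went from 33.7% ± 1.95 to 13.7% ± 1.63.

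**Figure D5:**
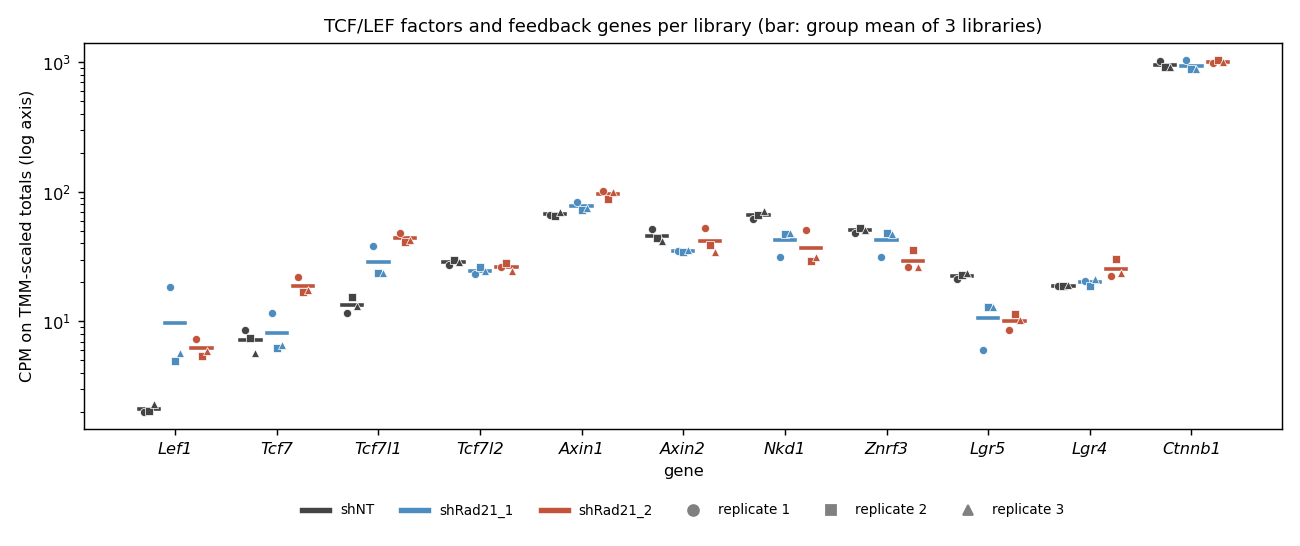
CPM on a log axis of the TCF/LEF genes, the intracellular and feedback genes and the LGR receptors in the 9 libraries, with bars for group means. Lef1 and Tcf7l1 are above shNT in all 6 knockdown libraries, whereas for Tcf7 only the shRad21_2 libraries are above all others. Lgr5 and Nkd1 are below shNT in all 6 knockdown libraries, and Ctnnb1 lies between 888 and 1036 throughout.

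Other genes of the pathway came from a separate list of 50, of which 45 were tested. With shRad21_1, 5 rose and 3 fell (17.8%, beside 9.82% of all genes). With shRad21_2, 13 rose and 7 fell (44.4%, beside 43.6% of all genes), and between the hairpins 7 were higher and 3 lower (22.2%, beside 26.3% of all genes). Ror2, a Wnt5a co-receptor, stood at 10.6, 12.1 and 11.0 CPM with shNT, at 22.7, 26.5 and 23.6 with shRad21_1 and at 23.7, 28.8 and 28.2 with shRad21_2. Both hairpin groups were above shNT and overlapped each other. Ror2 rose by 1.11 (SE 0.11, edgeR adjusted p = 6.34e-04) and by 1.25 (SE 0.11, adjusted p = 2.92e-05). Its relative Ror1 was not called.

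Apcdd1, a membrane-bound Wnt inhibitor, stood at 15.2 ± 1.79 CPM with shNT (SD, n = 3), at 1.88, 5.42 and 6.78 with shRad21_1 and at 1.79, 1.41 and 2.25 with shRad21_2. All knockdown libraries were below shNT, and shRad21_1 replicate 1 lay among the shRad21_2 libraries. Apcdd1 fell by 1.70 with shRad21_1 (SE 0.37, edgeR adjusted p = 0.0189) and by 3.06 with shRad21_2 (SE 0.40, adjusted p = 2.53e-04). The call for shRad21_1 was lost without shNT replicate 2 (-1.70) or 3 (-1.61) and with the close libraries summed (-1.87). Adgra2, which with Reck forms the receptor complex that reads Wnt7a and Wnt7b, stood at 105, 91.7 and 92.2 CPM with shNT, at 138, 110.3 and 108 with shRad21_1 and at 162, 166 and 163 with shRad21_2. The groups stepped up without overlap. Adgra2 rose by 0.77 with shRad21_2 (SE 0.10, edgeR adjusted p = 2.76e-04) and was at 0.30 with shRad21_1 (SE 0.10, adjusted p = 0.0847), and Reck was not called. Csnk1e, a kinase of the Dishevelled proteins, rose by 0.49 (SE 0.06, edgeR adjusted p = 0.00247, and 0.51 with the call lost on summing the close libraries) and by 0.76 (SE 0.07, adjusted p = 2.51e-05). Kremen1, a co-receptor for DKK proteins, fell by 0.50 (SE 0.09, edgeR adjusted p = 0.00762, and -0.55 with the call lost on summing) and by 0.56 (SE 0.09, adjusted p = 6.97e-04).

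Of 12 listed Wnt target genes, 8 were tested. With shRad21_1, Myc rose and Sp5 fell (25.0%, beside 9.82% of all genes). With shRad21_2, Myc, Cd44 and T rose and Sp5 fell (50.0%, beside 43.6% of all genes). Ccnd1, Tnfrsf19, Id2 and Jun were called against shNT with neither hairpin. Members outside the naming rule are named here because few were called in a direction, and were chosen after their values were seen. Myc, a growth regulator with many inputs besides Wnt, stood at 127, 176 and 170 CPM with shNT, at 205, 293 and 282 with shRad21_1 and at 358, 293 and 324 with shRad21_2. All knockdown libraries were above shNT. Myc rose by 0.72 with shRad21_1 (SE 0.16, edgeR adjusted p = 0.0202) and by 1.04 with shRad21_2 (SE 0.16, adjusted p = 6.85e-04). The first call was lost without shNT replicate 1 (0.59) or 3 (0.78), without shRad21_1 replicate 2 (0.63) or 3 (0.66), and with the close libraries summed (0.71). The tested genes of this list thus did not move in 1 direction with shRad21_2. Of the feedback inhibitors Axin2 and Nkd1, which are not on it, Nkd1 fell with that hairpin and Axin2 was not called.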

How the data were processed

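Members and gene lists were chosen with earlier results of these data known. The authors deposited whole-number counts per gene symbol, without normalisation. The submitters' processing notes name FastQC, cutadapt, Trim Galore, Bowtie2, RSEM and the build mm10. Tool versions, annotation, strand setting and the rounding of RSEM estimates were not given. Without strand, reads of overlapping antisense genes cannot be told apart. Totals ran from 34780003 to 46644607 counts, so that 3 counts were 0.0664 to 0.0880 CPM.

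From these counts, edgeR 4.0.16 in R 4.3.3 was run on the 13560 genes kept by filterByExpr, with TMM scaling, 1 quasi-likelihood fit of 3 group means and 3 two-sided comparisons. Per-kb levels use merged exons of GENCODE for the same build, matched for 57 of 57 members. Values are given in every library for members called in at least 1 comparison with a group mean of at least 1 CPM, and for members with a group mean of at least 20 CPM. From the other pathway and target lists, the 6 genes with the smallest adjusted p for shRad21_2 and the 3 for shRad21_1 against shNT were named. Simulated counts for 13560 genes, 200 of them changed, tested the script. It recovered 86.9% of 2-fold changes for shRad21_1 against shNT and 76.9% for shRad21_2, with libraries drawn independently.

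Replicate numbers come from the sample labels. Deviations from group means of same-numbered libraries correlated at 0.29, 0.17 and 0.18 between shRad21_1 and shNT. These values met the rule used for pairing (every pair over 0.1), and the other comparisons did not meet it. For shRad21_1 and shNT the rule cannot decide whether the numbers pair libraries. Both groups hold a close pair with the same numbers, whose libraries deviate alike from the group mean. The correlations therefore tend to share a sign whether or not the numbers pair libraries. The alternatives tried were library totals, DESeq2 1.42.0 size factors, the DESeq2 Wald test, limma-voom (limma 3.58.1), looser and stricter filters, fits of 2 groups, a replicate block, close libraries summed, and each library left out in turn. Promoters came from RefSeq. No protein sequences were used here.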

Additional observations from a re-analysis of the deposited data

How the results depend on the processing

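The 117 gene results were recomputed under 18 alternatives, 2103 values in all, since Rnf43 did not pass the stricter filter and has no value there in its 3 comparisons. Of these, 1931 kept their direction and side of the threshold, 111 lost the call, 16 gained it and 45 changed sign, none of the last for a called gene. With close libraries summed, shRad21_1 against shNT gave 130 called genes and 3 called members (1 higher, 2 lower), shRad21_2 against shNT gave 3707 genes, and shRad21_2 against shRad21_1 gave 1270 genes and 8 members (2 higher). The DESeq2 Wald test called 2042 genes for shRad21_1 against shNT. With only the 2 groups compared, 2233 genes and 9 members (2 higher) differed between the hairpins. Leaving out each library gave 460 to 1599 genes and 7 to 14 members (2 to 5 higher, 5 to 10 lower) for shRad21_1 against shNT. For the hairpins it gave 2045 to 4486 genes and 9 to 15 members (2 to 6 higher). The cause of these changes was not tested.

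The sign changes concerned genes that were not called. For shRad21_1 against shNT, Sfrp2 was -0.0060 with library totals, -0.058 with limma-voom, -0.0051 with the stricter filter, -0.043 with the replicate block and -0.14 with close libraries summed, where Fzd5 was 0.13. For shRad21_2 against shNT, Fzd2 was -0.068 with library totals, -0.012 with the looser filter, -0.021 with the stricter filter and -0.0065 with close libraries summed, where Sfrp4 was 0.019. Between the hairpins, library totals gave -0.015 for Fzd4 and -0.031 for Fzd7, and close libraries summed gave 0.051 for Fzd10 and 0.074 for Lgr5. Leaving out each library gave, for shRad21_1 against shNT, -0.099 to 0.027 for Ctnnb1, -0.34 to 0.055 for Fzd5, -0.16 to 0.27 for Sfrp2, -0.16 to 0.33 for Tcf7 and -0.37 to 0.11 for Wnt7b. For shRad21_2 against shNT it gave -0.020 to 0.031 for Fzd2, -0.16 to 0.25 for Fzd3 and -0.20 to 0.084 for Sfrp4. Between the hairpins it gave -0.046 to 0.11 for Fzd4, -0.95 to 0.22 for Lef1, -0.20 to 0.058 for Fzd10, -0.36 to 0.088 for Lgr5, -0.016 to 0.057 for Fzd7 and -0.15 to 0.17 for Lrp6.

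With the replicate block, 4 members were higher and 8 lower for shRad21_1 against shNT, and no call of a named gene changed there. In the other comparisons the block ended the call of Fzd7 for shRad21_2 against shNT (-0.25) and added that of Sfrp2 between the hairpins (0.65). The DESeq2 Wald test called Sfrp2 between the hairpins as well (0.62). The libraries that correlated best with the library of their own number were 2 of 6 for shRad21_1 against shNT, 6 of 6 for shRad21_2 against shNT and 2 of 6 between the hairpins, which comes from the data and not from the design. Members with few counts, such as Rnf43 with 2 counts under shRad21_2, are limited by depth.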
